A study of Mus musculus with 3 samples.

Results

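The 7 genes described here encode DEAD-box RNA helicases counted in male germ cells, though not all in these alone: Ddx25, which the study targeted, and Ddx4, Ddx6, Ddx20, D1Pas1, Ddx5 and Ddx1. They were chosen by name, and all 7 were among the 31053 genes counted in each library. The question was where in spermatogenesis each helicase is expressed, and whether the other helicases are higher in cells in which Ddx25 is absent or mutant. The data are single-cell RNA-seq counts of dispersed testis cells of 8-week-old C57BL/6 mice, with 1 library each of wild type (WT), GRTH-KO (KO) and GRTH-KI (KI). GRTH is the protein encoded by Ddx25. KO mice are knock-outs of the gene, and KI mice carry a human GRTH gene with an arginine to histidine change. Whether transcripts of that human gene were counted on the mouse Ddx25 gene was not tested, and every Ddx25 value of KI below has that limit. The age is that of the labels. The labels and the methods differ on the age of the mice and on whether a library came from 1 mouse or from pooled testes.

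DEAD-box helicases unwind or remodel short RNA duplexes and RNA-protein complexes with the energy of ATP, and are named after the amino acids of a motif in their ATPase core. Male germ cells depend on such proteins because spermatids make much of their protein from mRNA that was transcribed earlier and held in storage, in part in the chromatoid body, a cytoplasmic granule of round spermatids. Ddx25 is known to carry mRNA out of the nucleus and to act in its storage and translation, and male mice without it are sterile with an arrest of round spermatids.

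The stretch of coding sequence below shows what the 7 genes share. Each line is part of the GENCODE M21 (GRCm38) transcript with the longest coding sequence, read 5′ to 3′, with the codons of the DEAD motif in capitals and the codons on either side in lower case.

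Ddx25: tttgtcctgGATGAAGCAGATgtgatgatt
Ddx4: ttagttttgGATGAAGCTGATcgaatgttg
Ddx6: atagtgctaGATGAGGCAGATaaattgttg
Ddx20: tttattcttGATGAAGCAGATaagctttta
D1Pas1: ttggtgttaGATGAAGCAGATcgaatgttg
Ddx5: cttgtccttGATGAAGCTGATaggatgctt
Ddx1: ctggtcctgGATGAAGCAGATgggcttctc

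Of the 12 bases in capitals, Ddx20, D1Pas1 and Ddx1 shared all 12 with Ddx25, and Ddx4, Ddx6 and Ddx5 shared 11. Over the whole 30 bases the genes matched Ddx25 at 19 (Ddx6) to 24 (Ddx5) positions. The Ddx25 stretch lies in exon 8 of 12 of its coding transcript, on the minus strand at chr9:35551326-35551355. The genes themselves lie at chr9:35536647-35558528 on the minus strand (Ddx25), chr13:112598333-112652475 on the minus strand (Ddx4), chr9:44604892-44640731 on the plus strand (Ddx6), chr3:105678270-105687574 on the minus strand (Ddx20), chr1:186967416-186970627 on the plus strand (D1Pas1), chr11:106780355-106789185 on the minus strand (Ddx5) and chr12:13216973-13249213 on the minus strand (Ddx1). D1Pas1 has a single exon. It is an autosomal relative of the X-linked Ddx3x, but of the 31-base words in the last 500 bases of its transcript, the part a 3′ library reads, 0 of 470 occurred in any Ddx3x transcript, so these counts could be told apart. The other 6 members also shared no such word with each other or with Ddx3x, Ddx3y and Ddx17. Ddx6 overlaps 2 annotated genes on its own strand and Ddx5 overlaps 2 miRNA genes, and reads of these overlaps could not be separated.

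Values are unique molecular identifier counts (UMIs), which stand for captured mRNA molecules, summed over the cells of a class and given as counts per 1000000 UMIs of that class (CPM). After calling and filtering, 5856 WT, 4068 KO and 1569 KI cells remained, 11493 in all, with a median of 5142.5, 3969.5 and 11754 UMIs per cell. They fell into 16 clusters that were named from marker genes, with all DEAD-box genes kept out of the clustering. Spermatocyte-like (SP-like) cells numbered 1544, 1547 and 576 in WT, KO and KI, round spermatid-like (RS-like) cells 1239, 1099 and 443, and elongating spermatid-like (ES-like) cells 2472, 558 and 210. In ES-like cells the elongating spermatid markers summed to 275863 CPM in WT, 76249 CPM in KO and 82235 CPM in KI. The round spermatid markers summed to 2528, 6356 and 6318 CPM there. The study reports that its mutants had no distinct elongated spermatids. In KO and KI the ES-like name therefore gives only the marker list that led. An early meiotic-like cluster held 114, 137 and 79 cells, Sertoli-like cells numbered 192, 267 and 84, and cluster 9, with 238, 356 and 90 cells, stayed unnamed. The WT library stood apart from both mutants. Its cells had a median of 0.058% mitochondrial UMIs against 1.63% in KO and 1.33% in KI, and 733 of its barcodes were removed for few genes against 49 and 177. ES-like cluster 4 held nearly WT cells alone, and clustering without integration gave SP-like clusters of nearly 1 side alone, such as 688 WT, 1 KO and 0 KI cells in one and 14, 726 and 358 in another. WT and KO shared 16 cell barcodes, WT and KI 36, and KO and KI 8. With 1 library per genotype there is no replicate error, so no test between genotypes was possible. The 95% intervals cover counting error only, and differences between mice are not in them.

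Ddx25 was a spermatocyte and round spermatid transcript in WT. Its level was 67.1 CPM (95% Poisson interval 52.9 to 84.0, 76 UMIs) in early meiotic-like cells, 217 CPM (211 to 223, 4645 UMIs) in SP-like cells, 149 CPM (142 to 157, 1603 UMIs) in RS-like cells and 31.5 CPM (29.1 to 34.1, 640 UMIs) in ES-like cells. SP-like cells held 65.0% and RS-like cells 22.4% of the 7150 Ddx25 UMIs of WT cells. Across single germ cell clusters the level was highest in SP-like clusters 12 (244 CPM), 7 (224 CPM), 8 (215 CPM) and 6 (208 CPM). Of these neighbours, clusters 12, 7 and 8 had overlapping intervals, as had clusters 7, 8 and 6. Below them stood RS-like cluster 3 at 158 CPM and SP-like cluster 10 at 139 CPM, whose intervals overlapped, then RS-like cluster 1 at 82.6 CPM and early meiotic-like cluster 13 at 67.1 CPM, which also overlapped. ES-like cluster 5, at 54.1 CPM, overlapped cluster 13, and ES-like clusters 4 and 2 were lowest, at 19.3 and 12.6 CPM, with intervals that met at 15.3 to 15.4 CPM.

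**Figure D1:**
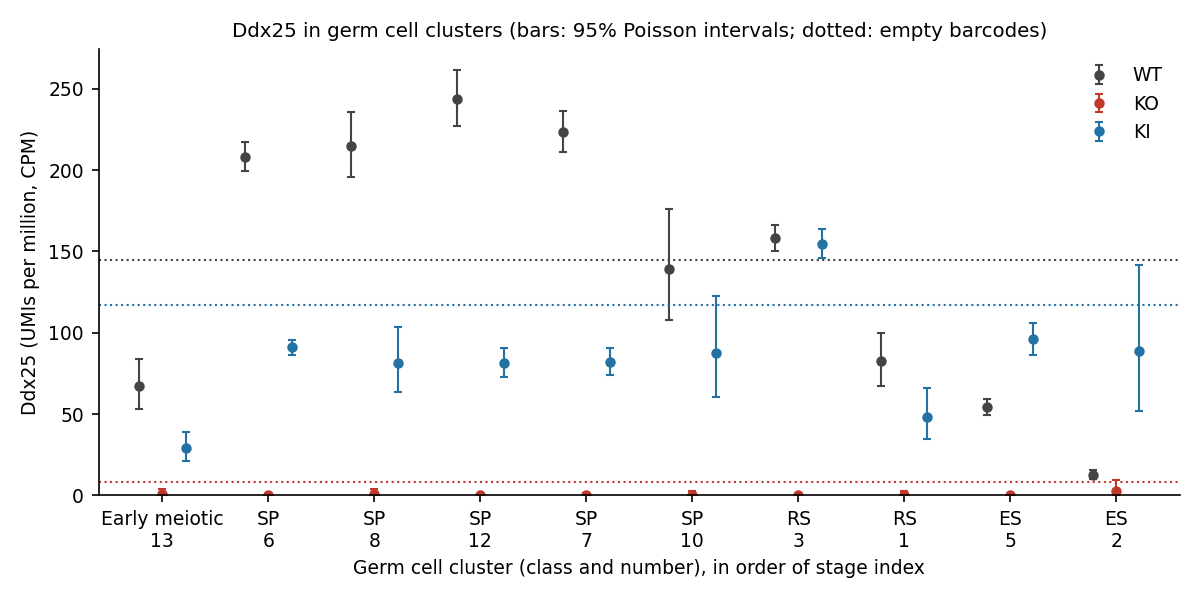
Ddx25 in CPM (y axis) in 10 germ cell clusters in order of stage (x axis), with 1 point per library (WT, KO, KI), 95% Poisson intervals as bars and the level in empty barcodes of the same library as dotted lines. WT is highest in SP-like clusters 6, 8, 12 and 7 (208 to 244 CPM), KI is highest in RS-like cluster 3 (155 CPM), and KO is at or near 0 throughout.

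In KO the Ddx25 counts were nearly absent. SP-like cells held 10 UMIs against 4645 in WT, which put WT 666-fold above KO (95% interval 352 to 1430). RS-like cells held 0 UMIs, and with the 3 counts that a count of 0 allows in the class, the WT level as measured was at least 418-fold higher than that of KO. Early meiotic-like cells held 1 UMI and ES-like cells 3. All 14 Ddx25 UMIs in KO cells were single counts in 14 cells, 6 of them in SP-like cluster 6.

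Most Ddx25 UMIs of the KO library lay outside cells. The whole KO library held 165 Ddx25 UMIs in 164 barcodes, against 11511 UMIs in WT and 7712 in KI. In the 45001 barcodes that served as empty droplets, Ddx25 was measured at 145 CPM for WT, 8.39 CPM for KO (75 UMIs) and 117 CPM for KI. The KO level in empty barcodes was thus above that in KO SP-like cells (0.325 CPM). Of the 164 KO barcodes with a Ddx25 UMI, 40 also had one in WT or KI at the same barcode, and 26 were a WT or KI cell there. The share over all KO barcodes was not counted. Of all barcodes with a UMI, 6307 of 1673774 in WT and 4288 of 1813075 in KI held a Ddx25 UMI. These shares are much smaller than 40 of 164. Of the 14 KO cells with a Ddx25 UMI, 0 had a Ddx25 UMI or a cell in WT or KI at the same barcode. Of all 4068 KO cells, 19 had such a UMI and 19 such a cell, so a count of 0 among 14 is near that background. The source of these UMIs was not tested.

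Ddx25 in KI was below WT in SP-like cells and close to WT in RS-like cells. In SP-like cells the level was 217 CPM in WT and 87.7 CPM in KI (84.2 to 91.3, 2339 UMIs), a log2 ratio of -1.30 (95% counting interval -1.37 to -1.23) where the median of all 8068 genes with a mean of at least 10 CPM was 0.05. In RS-like cells as a whole it was 149 CPM in WT and 144 CPM in KI (136 to 153, 1212 UMIs), a log2 ratio of -0.05 (-0.15 to 0.06) where the median of all 8282 genes was 0.13. So the order of the stages differed between the libraries, with SP-like above RS-like cells in WT and RS-like above SP-like cells in KI, and neither pair of intervals overlapped. The log2 ratio of KI to WT was 1.25 higher in RS-like than in SP-like cells (1.12 to 1.38). Among 6103 genes at 10 CPM or more in both classes the median of this difference was 0.20, and 2.9% of genes had one as large as that of Ddx25 or larger. This order of KI rested on RS-like cluster 3. In RS-like cluster 1 the level of KI was 48.5 CPM (34.5 to 66.3), below that of its SP-like cells, and with cluster 1 alone the difference was 0.54 (0.01 to 1.07), which 22.9% of 6006 genes reached or passed.

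The lower level in KI was seen in each of the 6 early meiotic-like and SP-like clusters. The log2 ratio of KI to WT was -1.18 in early meiotic-like cluster 13, and -1.18, -1.39, -1.58, -1.44 and -0.66 in SP-like clusters 6, 8, 12, 7 and 10, and each of these intervals lay below 0. Cluster 10, with the ratio nearest to 0, was led by mitochondrial genes and its cells had few UMIs. KI was at 81.1 to 91.1 CPM in all 5 SP-like clusters, while WT ranged from 139 to 244 CPM.

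The 2 RS-like clusters differed from each other. In cluster 3, with 563 WT and 189 KI cells of high UMI counts, the log2 ratio was -0.03 (-0.14 to 0.08), from 158 CPM in WT and 155 CPM in KI. In cluster 1, whose cells had a median of 0.286 times the UMIs of their library, it was -0.76 (-1.28 to -0.24), from 105 UMIs in WT and 39 in KI. The near-equal level of KI and WT in RS-like cells therefore rested on cluster 3. Without integration of the libraries the log2 ratio in RS-like cells was -1.10, from KI cells that all belonged to the low-UMI cluster. In the later ES-like cluster 5 the level was 54.1 CPM in WT and 96.0 CPM in KI, a log2 ratio of 0.81 where the median of all genes was 0.54, which is 0.28 beyond that shift.

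**Figure D2:**
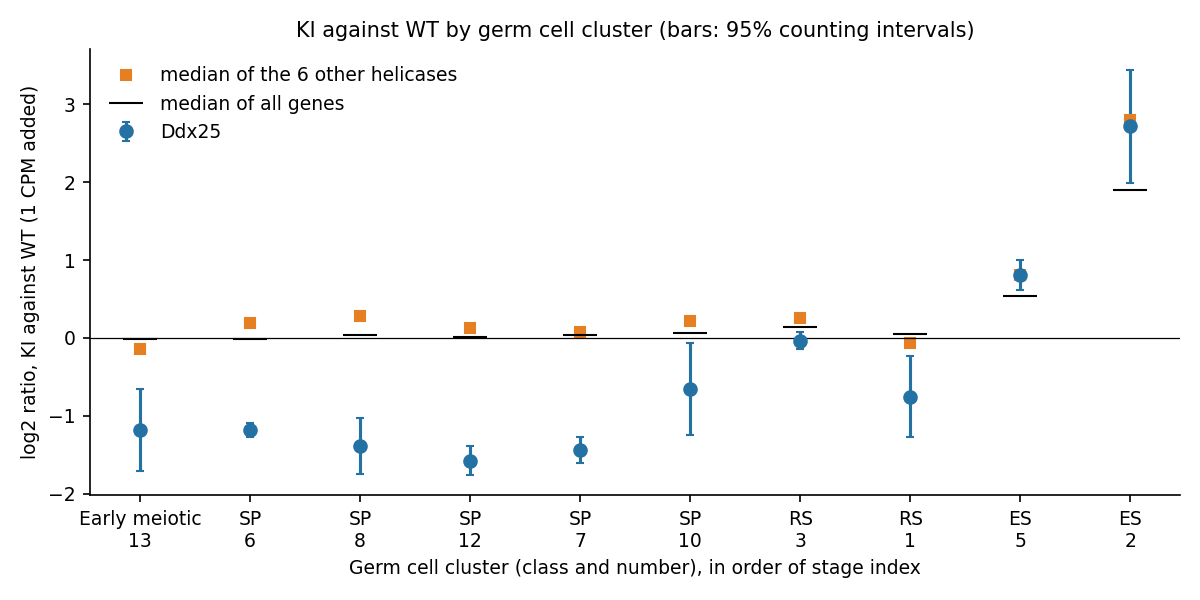
The log2 ratio of KI to WT (y axis, 1 CPM added) in 10 germ cell clusters in order of stage (x axis), for Ddx25 with 95% counting intervals, for the median of the 6 other helicases (squares) and for the median of all genes (dashes). Ddx25 lies below 0 in the early meiotic-like and all SP-like clusters (-0.66 to -1.58) and at -0.03 in RS-like cluster 3, and in ES-like clusters 5 and 2 all 3 measures are above 0.

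Marker mRNA of elongating spermatids differed between the libraries in the same classes. The 12 marker genes of elongating spermatids, all of them above 0 in every library, summed to 4512 CPM in WT, 641 CPM in KO and 276 CPM in KI SP-like cells. In RS-like cells they summed to 12908, 5692 and 4487 CPM, while the 12 spermatocyte markers summed to 3229, 4255 and 4201 CPM. The 12 round spermatid markers were nearly level in RS-like cells, at 6119, 6173 and 5833 CPM, but summed to 504, 309 and 223 CPM in SP-like cells. The part of these differences in the helicase ratios was not tested. The mean empty barcode held 183 UMIs in WT and 170 in KI, and at that level 41.0 of the 4645 Ddx25 UMIs of WT SP-like cells and 11.5 of the 2339 of KI SP-like cells would have come from free RNA. The same calculation gave 2.58 UMIs for KO SP-like cells, where 10 were counted, and 5.10 of the 124 of WT Sertoli-like cells. It covers RNA at the level of empty barcodes only, and germ cell RNA beyond that level in a droplet was not measured.

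Ddx25 was also counted in Sertoli-like cells, the somatic cells that support and clear germ cells. They showed 186 CPM in WT (124 UMIs), 0 UMIs in KO and 88.8 CPM in KI (58 UMIs). Ddx4, a germ cell marker, was at 227, 288 and 295 CPM there, and the 12 elongating spermatid markers summed to 49680, 12884 and 28899 CPM, far above the 8 Sertoli markers at 2243, 1831 and 2503 CPM. Germ cell RNA was thus present in the Sertoli-like cells of all 3 libraries, and these Ddx25 counts were not read as expression by Sertoli cells. In Leydig-like cells, the androgen-producing cells in which GRTH is also known, 1 UMI was counted in 15 WT cells, 0 in 21 KO cells and 6 in 20 KI cells, too few to give an order. Ddx6 was at 99.5 CPM (13 UMIs), 116 CPM (24 UMIs) and 135 CPM (56 UMIs) in these Leydig-like cells. Ddx5 was at 855 CPM in 29 WT stromal and myoid-like cells (41 UMIs) and 658 CPM in 13 WT macrophage-like cells (17 UMIs). Germ cell RNA in these droplets was not measured.

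The 5 genes whose level over the 13 WT clusters with at least 50 WT cells was most like that of Ddx25 were 4930592C13Rik (Pearson r of log2 levels 0.990), Fkbp4 (0.990), Ndufb2 (0.990), Gm11837 (0.990) and Ndufb5 (0.989), of 8484 genes ranked. The other helicases were less like it, with Ddx5 at 0.864, Ddx1 at 0.854, Ddx4 at 0.836, Ddx20 at 0.709, Ddx6 at 0.638 and D1Pas1 at 0.570. Clusters share cells of 1 library and differ in depth, so these coefficients describe the WT library and carry no test.

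Of the 6 other helicases, Ddx4, Ddx6, D1Pas1 and Ddx1 fell from early meiotic-like to SP-like and again to RS-like cells in WT. Ddx5 fell to SP-like cells and was nearly level from there, and Ddx20 was highest in RS-like cells. Ddx4 (VASA), a component of the germ cell granules that process piRNA, was at 532 CPM in early meiotic-like, 400 CPM in SP-like, 236 CPM in RS-like and 21.3 CPM in ES-like cells. Ddx6, which acts in the repression and decay of mRNA in P-bodies, was at 155 CPM in early meiotic-like, 63.6 CPM in SP-like and 2.33 CPM in RS-like cells. D1Pas1, which is expressed in meiotic male germ cells, was at 51.2, 37.6 and 13.9 CPM in the same order. These 3 thus fell from the early meiotic-like cluster to SP-like and again to RS-like cells, with no overlap of intervals for Ddx4 and Ddx6, and for D1Pas1 with an overlap between the first 2 classes only.

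Ddx20 ran the other way. This gene encodes Gemin3, a subunit of the SMN complex that assembles spliceosomal particles. Its level was 60.9 CPM in early meiotic-like, 75.0 CPM in SP-like and 149 CPM in RS-like cells, so it was highest in round spermatids. The intervals of the early meiotic-like (47.4 to 77.1 CPM) and SP-like cells (71.4 to 78.8 CPM) overlapped. SP-like cluster 6 was at 57.6 CPM, so only the rise to RS-like cells stood clear. Ddx5, a cofactor of transcription and RNA processing, was at 1111 CPM in early meiotic-like cells and nearly level between SP-like (697 CPM) and RS-like cells (715 CPM). Ddx1, which takes part in tRNA ligation and RNA transport, was at 263, 199 and 115 CPM in these classes, with no overlap of intervals. Spermatogonia, the premeiotic germ cells, formed no cluster of their own at resolution 0.3, and the early meiotic-like cluster also scored on their markers. At resolution 0.6 an SG-like cluster of 36 WT cells split off, with Ddx6 at 222 CPM (172 to 282), Ddx4 at 288 CPM, D1Pas1 at 19.9 CPM from 6 UMIs and Ddx25 at 49.7 CPM from 15 UMIs.

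**Figure D3:**
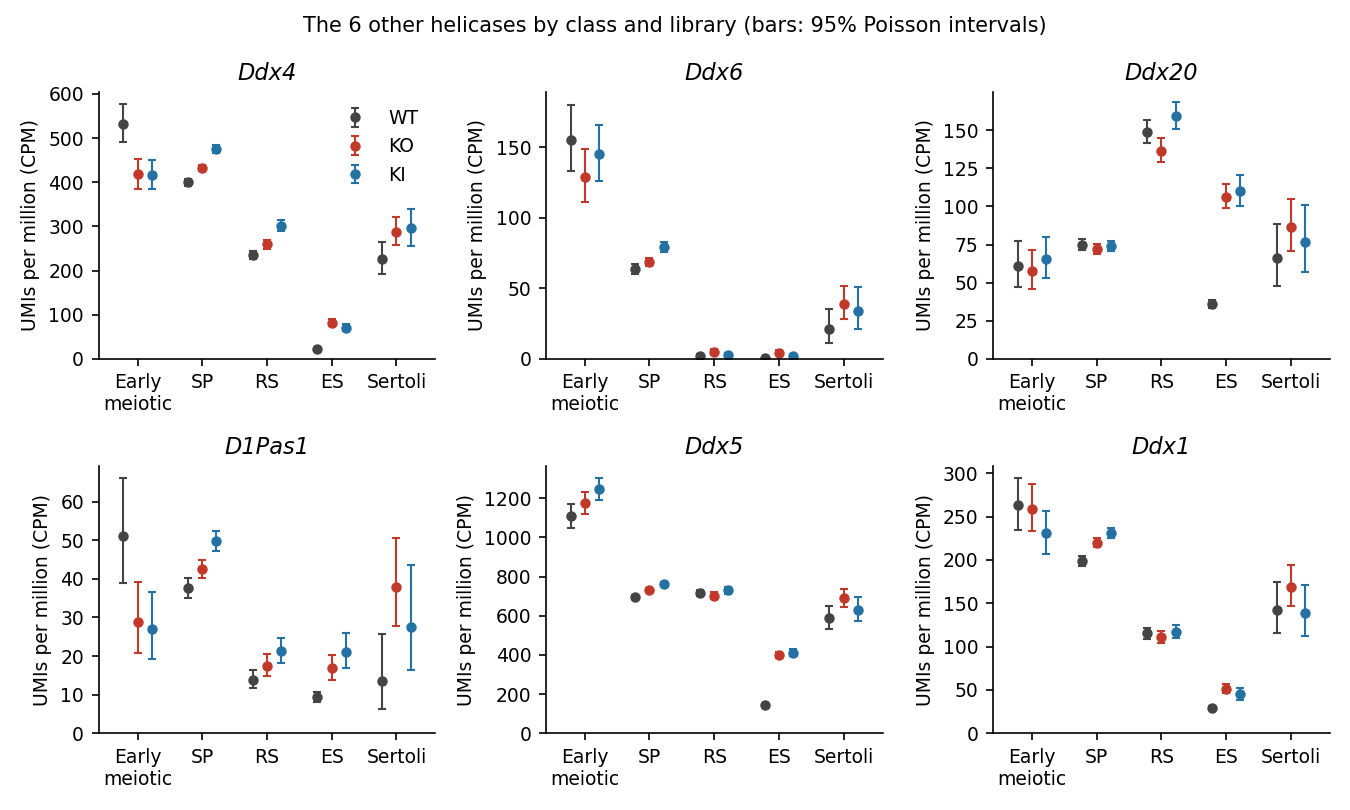
The 6 other helicases in CPM (y axes) in 4 germ cell classes and Sertoli-like cells (x axes), with 1 point per library and 95% Poisson intervals as bars. For all but Ddx5, the libraries lie close together within SP-like and RS-like cells next to the difference between these classes. Ddx20 is near 75.0 CPM in SP-like cells and near 149 CPM in RS-like cells, and Ddx6 is near 0 in RS-like cells. Ddx5 lies at 697 to 764 CPM in SP-like and 703 to 729 CPM in RS-like cells.

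In SP-like cells of KO, nearly without Ddx25 counts, the other helicases differed little from WT. Ddx4 was at 400 CPM in WT and 432 CPM in KO, a log2 ratio of 0.11 (0.07 to 0.15). Ddx6 was at 63.6 and 68.4 CPM (0.10, 0.01 to 0.20) and D1Pas1 at 37.6 and 42.5 CPM (0.17, 0.05 to 0.30). Ddx1 was at 199 and 220 CPM (0.15, 0.09 to 0.20) and Ddx5 at 697 and 733 CPM (0.07, 0.04 to 0.10). Ddx20, at 75.0 and 72.0 CPM (-0.06, -0.15 to 0.04), was the 1 helicase below WT in the class sum. In cluster 6 it was above WT, at 57.6 CPM in WT (53.0 to 62.5) and 68.6 CPM in KO (64.6 to 72.8). With overlapping intervals, it was above WT in clusters 10 and 12 and below it in clusters 7 and 8. In the class as a whole, 5 of the 6 were slightly above WT with intervals that left out 0, as 32.2% of all genes were. These small ratios moved with the processing. Ddx6 was at -0.038 without cluster 7, Ddx5 at -0.020 without cluster 6, and Ddx4 at 0.018 without integration, and these 3 intervals spanned 0. The median log2 ratio of the 6 was 0.11, beside 0.02 over all 8068 genes, and it was 0.041 without integration. None of the 6 was past 1.5-fold higher, where 0.731% of all genes were, and none past 1.5-fold lower, where 5.58% were.

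In SP-like cells of KI the same 5 genes were above WT with intervals that left out 0, as 38.2% of all genes were. D1Pas1 was at 49.7 CPM, a log2 ratio to WT of 0.40 (0.27 to 0.52), and Ddx6 at 79.1 CPM (0.31, 0.21 to 0.41). Ddx4 was at 475 CPM (0.25, 0.21 to 0.29), Ddx1 at 231 CPM (0.22, 0.16 to 0.28) and Ddx5 at 764 CPM (0.13, 0.11 to 0.16). Ddx20 was at 74.1 CPM, a log2 ratio of -0.02 with an interval that spanned 0. The median of the 6 was 0.23, beside 0.05 over all genes, and none of them was past 1.5-fold higher, where 1.17% of all genes were, or lower, where 6.76% were. Both comparisons share the WT library.

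**Figure D4:**
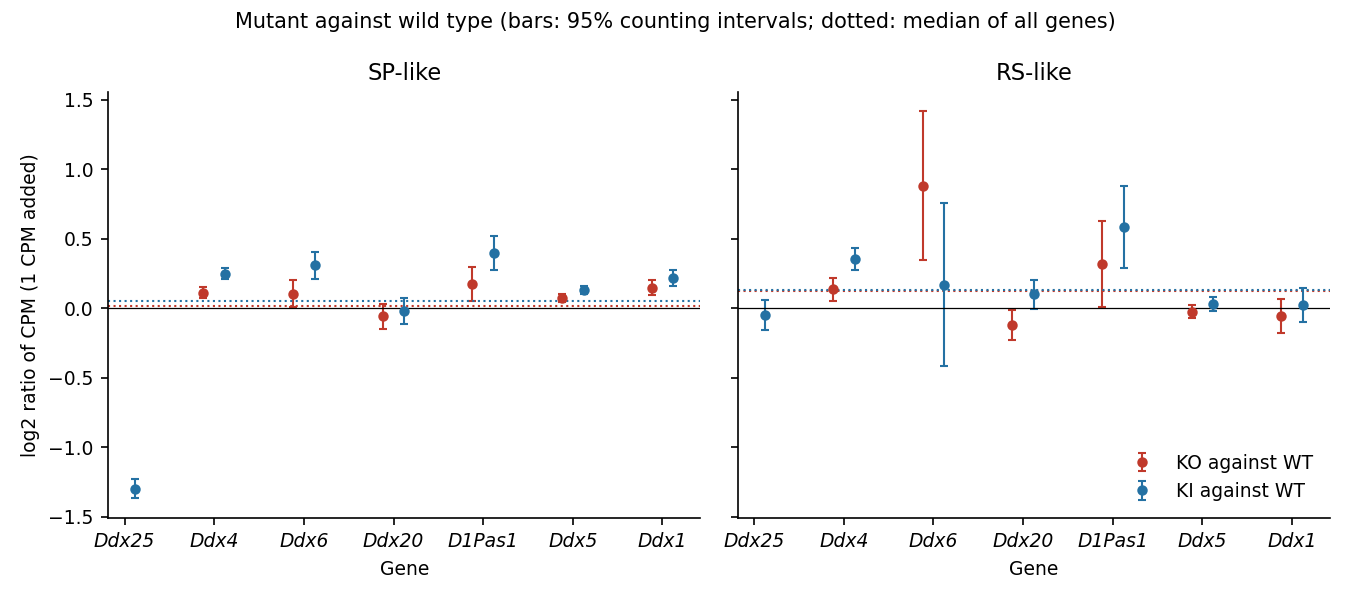
The log2 ratio of each mutant library to WT (y axis, 1 CPM added) for the 7 helicases (x axis) in SP-like cells (left) and RS-like cells (right), with 95% counting intervals as bars and the median of all genes as dotted lines. Ddx25 is shown for KI only, at -1.30 in SP-like and -0.05 in RS-like cells, and in SP-like cells the 6 other helicases lie between -0.06 and 0.40.

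In RS-like cells, where Ddx25 was at 149 CPM in WT and not counted in KO, the 6 other helicases spread to either side of WT. Ddx4 was at 236 CPM in WT and 259 CPM in KO (0.14, 0.05 to 0.22) and D1Pas1 at 13.9 and 17.5 CPM (0.32, 0.01 to 0.62). Neither direction was stable. Ddx4 was at -0.032 with TMM scaling, which sets libraries to a common level over most genes, and at -0.23 with cells assigned by marker score. D1Pas1 had an interval that spanned 0 with TMM (0.16, -0.15 to 0.47). It was at -0.45 without cluster 3, from 21 UMIs in WT and 15 in KO, with overlapping intervals of the 2 levels. Without cluster 3, Ddx20 was at -0.67, from 188 UMIs in WT and 118 in KO, and Ddx1 at 0.77, from 70 and 120. The median of all genes was 0.10 there, and the share of genes with ratios as large was not counted. Ddx20 was at 149 and 137 CPM (-0.12, -0.23 to -0.01), but 0.064 at resolution 0.6 of the clustering, and the intervals of Ddx5 (715 and 703 CPM) and Ddx1 (115 and 111 CPM) spanned 0. The median of the 6 was 0.06, below the median of all genes at 0.13, and it changed sign with TMM (-0.11). Ddx6 had the ratio farthest from 0 (0.88, 0.34 to 1.41), but from 25 UMIs in WT and 43 in KO, a level of 2.33 and 5.12 CPM that was under the minimum of 10 CPM for counting genes, and it turned to -0.43 with each cell weighing equally. Of the 5 helicases above that minimum, none was past 1.5-fold in either direction in KO with both clusters, where 13.2% of all genes were higher and 8.4% lower.

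In RS-like cells of KI, Ddx4 was at 302 CPM (0.36, 0.28 to 0.43) and D1Pas1 at 21.3 CPM (0.59, 0.29 to 0.88). By marker score Ddx4 was at 0.070, with an interval that spanned 0. D1Pas1, from 149 UMIs in WT and 179 in KI, lay just past the 1.5-fold limit, the 1 helicase of 5 to do so, beside 15.2% of all genes higher and 10.5% lower, and it was not past it with TMM scaling, where its log2 ratio was 0.45. Without cluster 3 the ratio was 0.071 (-0.85 to 0.99), from 21 UMIs in WT and 14 in KI. Ddx20 (0.10), Ddx5 (0.03), Ddx1 (0.02) and Ddx6 (0.17) had intervals that spanned 0. The median of the 6 was 0.13, and so was that of all genes, and it ranged from -0.068 without cluster 3 to 0.25 with cells called by UMI totals alone.

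In the early meiotic-like cluster, which precedes the SP-like clusters, Ddx4, Ddx6, D1Pas1 and Ddx1 lay below WT in both mutants, while in SP-like cells they lay above it. Of the 6 helicases 5 were lower in KO, with a median log2 ratio of -0.17, and 4 in KI, with a median of -0.14. D1Pas1 was at 51.2 CPM in WT (58 UMIs), 28.9 CPM in KO (41 UMIs) and 27.0 CPM in KI (40 UMIs), with log2 ratios to WT of -0.81 (-1.37 to -0.24) and -0.90 (-1.46 to -0.34). Ddx4 was at 532, 418 and 417 CPM, with a log2 ratio of -0.35 for both mutants. These were the 2 genes below WT with intervals that left out 0, as 12.1% of all genes were in KO and 16.2% in KI, and D1Pas1 was past 1.5-fold lower, as 8.52% and 13.4% were. Ddx6 was at 155, 129 and 145 CPM and Ddx1 at 263, 259 and 231 CPM, with intervals of both ratios that spanned 0. Ddx5 was at 1111, 1174 and 1248 CPM, above WT, and its interval left out 0 in KI (0.17, 0.06 to 0.27). The median of all genes was -0.01 in both comparisons. The spermatogonial markers summed to 424 CPM in WT, 588 CPM in KO and 810 CPM in KI in this cluster, and the elongating spermatid markers to 6849, 1346 and 524 CPM. The Sertoli markers summed to 757, 318 and 336 CPM and the spermatocyte markers to 3578, 3044 and 2397 CPM. The early meiotic markers were nearly level, at 8805, 9193 and 8979 CPM. The part of these marker differences in the helicase ratios was not tested.

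ES-like cells could not be compared as 1 class, because cluster 4 held 1111 WT cells but 11 KO and 1 KI cells, and because in cluster 2 the median of all genes was 2.32 higher in KO and 1.90 higher in KI on the log2 scale. Cluster 5, with 544 WT, 289 KO and 117 KI cells, had a shift of 0.54 for both. There Ddx4 was at 27.0 CPM in WT, 61.6 CPM in KO and 67.2 CPM in KI, which is 0.62 and 0.75 on the log2 scale beyond the shift of all genes. D1Pas1 was at 8.15, 15.6 and 19.95 CPM, 0.32 and 0.66 beyond it. Ddx1, at 37.8, 45.3 and 43.4 CPM, lay 0.28 and 0.34 under it. Ddx20, at 60.8, 105.0 and 112 CPM, was 0.24 and 0.33 beyond it, and Ddx5, at 244, 367 and 408 CPM, 0.05 and 0.20. Ddx6 had 6, 13 and 5 UMIs, too few to place. Of the 5 helicases with a mean of at least 10 CPM over the libraries, 4 (Ddx4, Ddx20, D1Pas1 and Ddx5) were past 1.5-fold higher in both mutants, where 47.2% of all genes were in KO and 47.3% in KI. With TMM scaling 0 of these 5 was in KO, where 18.3% of all genes were, and 1, Ddx4, in KI, where 18.7% were. D1Pas1, at 8.15 CPM in WT, reached that mean only through the mutants, so its place in the first count carries no weight.

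The wider family was counted from a list of 33 other DEAD-box genes, of which 31 were in the files. In SP-like cells 26 had a mean of at least 10 CPM, and 0 of these were past 1.5-fold in either direction in KO or in KI, with medians of 0.05 and 0.15. Over all genes 0.731% were past it higher in KO and 1.17% in KI, and 5.58% and 6.76% lower, so a count of 0 among 26 is near that background. Of the closest relatives, Ddx17, the paralog of Ddx5, had 55.9 CPM in the WT library, 53.8 CPM in that of KO and 61.1 CPM in that of KI, and Ddx19b, an mRNA export factor, 116, 113 and 121 CPM. Ddx3x (3, 4 and 7 UMIs), Ddx3y (19, 23 and 11 UMIs) and Ddx19a (34, 44 and 25 UMIs) were close to absent from SP-like cells of every library.

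In RS-like cells 19 of the 31 had a mean of at least 10 CPM, of which 6 were past 1.5-fold higher in KO and 6 in KI and 0 were past it lower, with medians of 0.40 and 0.43 beside 0.13 over all genes. Over all genes 13.2% were past it higher in KO and 15.2% in KI, and 8.4% and 10.5% lower. With TMM scaling the counts higher were 6 and 4, where 7.61% and 9.44% of all genes were, and 1 gene was lower in KO, where 13.3% were. The 4 genes past 1.5-fold in both mutants, where 10.3% of all genes were, were Ddx27, Ddx39b, Eif4a1 and Eif4a3, and both comparisons share the WT library. Eif4a3, of the exon junction complex, was at 31.1 CPM in WT, 63.8 CPM in KO and 54.7 CPM in KI, log2 ratios of 1.01 and 0.79. Eif4a1, the helicase of translation initiation, was at 36.8, 73.8 and 67.8 CPM (0.99 and 0.86). Both were thus near 2 times the WT level in KO. Ddx39b, which acts in splicing and export, was at 10.1, 20.7 and 22.3 CPM (0.97 and 1.07), and Ddx27, of ribosome assembly, at 15.6, 27.3 and 32.0 CPM (0.76 and 0.99). In SP-like cells the same 4 genes had log2 ratios of 0.13 to 0.38. As given above, spermatocyte markers were also higher and elongating spermatid markers lower in RS-like cells of both mutants, and their part in these ratios was not tested.

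**Figure D5:**
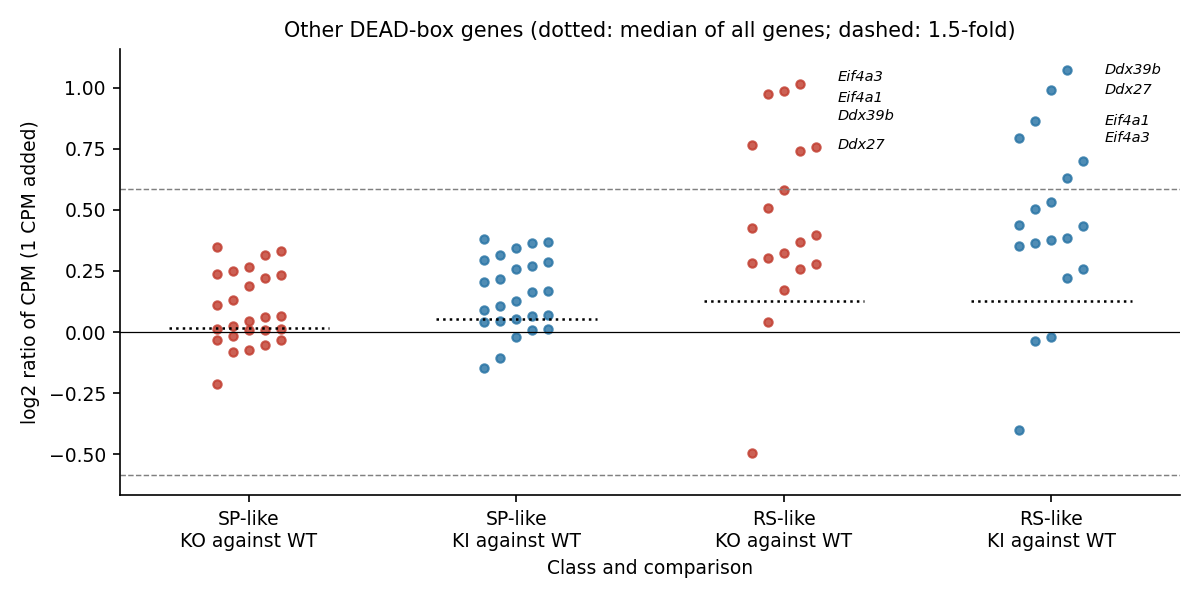
The log2 ratio to WT (y axis, 1 CPM added) of the other DEAD-box genes with a mean of at least 10 CPM, 26 in SP-like and 19 in RS-like cells, with 1 point per gene for each class and comparison (x axis), the median of all genes dotted and 1.5-fold dashed. All points of SP-like cells lie within 1.5-fold, and in RS-like cells Ddx27, Ddx39b, Eif4a1 and Eif4a3 lie above it in both mutants.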

How the data were processed

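The authors deposited unfiltered UMI counts of each gene in each barcode (10x Genomics 3′ libraries, build mm10; Cell Ranger 2.1.1 in the submitters' processing notes, 4 in the file headers) for 1 WT, 1 KO and 1 KI library of 82973909, 91388296 and 73150373 UMIs. Cells were called with 3000 expected cells and then against 45001 empty barcodes (10000 simulations, false discovery rate 0.01, from 500 UMIs up, and no more than 20000 barcodes, which KO exceeded), which gave 6990, 4751 and 2005 barcodes. Those with over 500 genes and under 10% mitochondrial UMIs were kept. Doublets were not removed. After the study's methods, libraries were integrated with Seurat 5.3.0 and sctransform 0.4.2 (2000 genes, 100 components) and clustered with leidenalg 0.10.2 at resolution 0.3.

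Clusters were named from marker lists by mean z score with a lead of 0.1 and at least 3 markers. A name was withheld where another list held more of the 10 leading genes. It was also withheld where cells had few UMIs and no leading gene came from the list itself. A provision for clusters led by both spermatocyte lists, added after the clusters were seen but before their helicase values were, named clusters 6 and 8, which were otherwise unnamed. Cluster 6, with 2071 of the 4645 Ddx25 UMIs of WT SP-like cells, scored 0.864 on the early meiotic list and 0.722 on that of spermatocytes, but 2 spermatocyte markers and no early meiotic one led its genes. UMIs were summed per class and library, scaled to the class total, and compared as log2 ratios with 1 CPM added. Poisson intervals are exact and those of log2 ratios are Wald intervals at 95%. The folds of WT over KO for Ddx25 are the exception, with no CPM added and no Wald interval. TMM factors came from edgeR 4.0.16, which gave no test. The ratio script was tested on simulated data. The text names the 7 members, 5 paralogs, the family genes past 1.5-fold in both mutants (mean of 10 CPM or more), and the 5 genes most like Ddx25. Other settings were 10 chosen at the outset (TMM, 5 CPM added, UMI totals alone for calling, over 1000 genes, under 5% mitochondrial UMIs, no integration, resolution 0.6, class by marker score, equal weight of cells, no top 5% of UMIs) and 9 chosen after seeing the data. Members, lists and markers were chosen with earlier results of these data known.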

Additional observations from a re-analysis of the deposited data

Results flagged for a closer look

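D1Pas1 and Ddx4 were singled out because their ratios to WT went in opposite directions in germ cell classes of the same libraries, with counting intervals that left out 0 in each as first computed. The difference was not tested, since each genotype has 1 library. For D1Pas1 the log2 ratio of KO to WT was -0.81 in early meiotic-like cells, 0.17 in SP-like cells and 0.32 in RS-like cells. The ratio of KI to WT was -0.90, 0.40 and 0.59 in the same classes. The early meiotic-like values rest on UMI counts of 58 (WT), 41 (KO) and 40 (KI). Of the other settings, only TMM scaling was run for the early meiotic-like class, and D1Pas1 stayed past 1.5-fold lower with it in both mutants. For Ddx4 the log2 ratio of KO to WT was -0.35, 0.11 and 0.14, and that of KI to WT was -0.35, 0.25 and 0.36. In RS-like cells the median of all genes was 0.13 in both comparisons, and the values there moved with the processing. In KO, Ddx4 turned to -0.032 with TMM scaling and -0.23 by marker score. D1Pas1 was at 0.16 with TMM, with an interval of -0.15 to 0.47. Without cluster 3 it was at -0.45, but from 21 UMIs in WT and 15 in KO. In KI, Ddx4 was at 0.21 with TMM and 0.070 by marker score, and D1Pas1 was at 0.45 with TMM and 0.071 without cluster 3.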

How the results depend on the processing

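No paired analysis was possible because each genotype has 1 library. All values here are log2 ratios to WT unless they are counts of genes, and those that leave out clusters or join calling and scaling were chosen after seeing the data. Ddx25 in KI SP-like cells (-1.30) stayed far below 0 throughout: -1.04 without integration, -1.19 with each cell weighing equally, -1.44 without cluster 6 and -1.46 without clusters 6 and 8. In KI RS-like cells (-0.05) it was -0.19 with TMM, -0.19 with cells called by UMI totals alone and TMM, 0.11 at resolution 0.6, -0.28 with each cell weighing equally, -0.76 without cluster 3 and -1.10 without integration, where the RS-like cluster of 466 cells held WT cells alone and the 269 RS-like cells of KI all came from the low-UMI cluster. The median of the 6 in SP-like cells became 0.041 for KO without integration (main value 0.11). For KI (0.23) it was 0.12 without integration, 0.20 with the class set by the marker score of each cell, 0.29 with each cell weighing equally, 0.16 without cluster 6 and 0.15 without clusters 6 and 8. In KO RS-like cells (0.06) its direction was not stable: -0.11 with TMM, -0.12 with UMI totals and TMM, -0.20 by marker score and -0.025 without cluster 3, but 0.26 without integration and 0.24 at resolution 0.6. Single genes in KO whose interval left out 0 and that turned were, in SP-like cells, Ddx5 (-0.020 without cluster 6, -0.042 without clusters 6 and 8) and Ddx6 (-0.038 without cluster 7), and in RS-like cells Ddx4 (-0.032 with TMM, -0.041 with UMI totals and TMM, -0.23 by marker score), Ddx20 (0.064 at resolution 0.6), Ddx6 (-0.43 with each cell weighing equally) and D1Pas1 (-0.45 without cluster 3). Ddx1 in KO RS-like cells, at -0.05 with an interval that spanned 0, was at 0.77 without cluster 3. The value of D1Pas1 without cluster 3 came from 21 UMIs in WT and 15 in KO. With no filter beyond 1 UMI, 12 of the 31 other DEAD-box genes were past 1.5-fold in KO RS-like cells, all higher (13.5% of all genes), 10 in KI RS-like cells, 9 of them higher (13%) and 1 lower (8.97%), and 1 in KI SP-like cells, higher (1.22%). Except where a setting leaves out clusters or samples, the cause of these changes was not tested. Of the alternatives for Ddx25, the medians and the gene counts, 73 stayed within the counting interval or 1.5 times the count, 21 moved beyond it and 4 changed direction. For the 6 other helicases taken singly, 260 stayed, 91 moved and 9 changed direction. In both sets a change of direction was counted only where the interval of the main value left out 0. Other changes of sign are among the values that stayed or moved. Depth limits Ddx6 in RS-like cells and all helicases in Leydig-like cells, and no setting replaces the missing replicates.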
